A study of Mus musculus with 6 samples.

Results

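The tumor necrosis factor (TNF) superfamily was described across the lungs of smoke-exposed mice with and without SS-31. Its members were chosen by gene symbol, not by their values: every protein-coding gene of the count table whose symbol begins with Tnfsf or Tnfrsf followed by a digit, together with Tnf, Lta, Ltb, Ltbr, Fas, Fasl, Cd40, Cd40lg, Cd27, Cd70 and Eda2r. This gave 42 of the 55573 genes in the table, 17 ligands and 25 receptors. The mice of both groups were wild-type C57BL/6, 9 to 10 weeks of age, and total lung RNA was sequenced in 3 libraries per group. The CS group had smoke sessions of 75 min, 2 on each exposure day, on 5 days of the week over 4 weeks. The SS-31H_CS group had smoke and, once a day, 5 mg/kg of SS-31, a mitochondria-targeted antioxidant peptide. The labels give the smoke schedule for CS only. Whether the libraries are from separate mice is not stated, so the p-values measure the spread between these libraries, which may be technical. The comparison addresses whether SS-31 altered airway inflammation under smoke, the purpose in the series title. No smoke-free lungs were analysed here, so every difference is SS-31H_CS against CS.

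TNF superfamily ligands are mostly membrane-anchored proteins that act as trimers, on the cell surface or after cleavage, and their receptors carry cysteine-rich repeats outside the cell. Some receptors hold a death domain and can start apoptosis or necroptosis; most recruit TRAF adaptors and activate NF-kB and MAP kinases; a few are decoys. In the lung, TNF and lymphotoxin drive inflammation and lymphoid aggregates, and other members steer the survival of B cells, the costimulation of T cells and epithelial injury responses.

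Library totals ran from 15611925 to 17360052 counts, and 3 counts in a library were worth 0.172 to 0.185 CPM (counts relative to library size, which was scaled by TMM, edgeR's correction for composition). Markers of lung epithelium were abundant (the surfactant gene Sftpc averaged 13302 CPM in CS), although the type 1 cell marker Pdpn was listed at 0 in every library. CS replicate 3 stood apart on the first principal component of all tested genes (61.3, the other CS libraries 14.4 and 7.19, the SS-31H_CS libraries -44.8 to -12.5; 46.4% of the variance). That library also held the least of the summed B cell markers (52.1 CPM, the other 5 libraries 222 to 339 CPM) and T cell markers (50.5 CPM, the others 102 to 226 CPM). SS-31H_CS replicate 2 held the most T cell markers (226 CPM) and SS-31H_CS replicate 3 the fewest neutrophil markers (504 CPM, the others 1412 to 3581 CPM). In whole lung, a smaller number of cells of a type and less RNA per cell cannot be told apart.

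Receptors for TNF and lymphotoxin were the most abundant members. Per transcript length, in the deposited FPKM, Tnfrsf1a, which encodes the main receptor for soluble TNF, had the highest level of the 42, at 94.9 ± 3.45 FPKM in CS and 70.5 ± 10.8 FPKM in SS-31H_CS (SD, n = 3 per group throughout). Ltbr, the lymphotoxin beta receptor gene, followed at 50.4 ± 7.42 and 40.8 ± 4.29 FPKM, and then Tnfrsf12a, Tnfsf10, Fas and Tnfrsf1b, each with a mean over the 6 libraries between 25.2 and 29.1 FPKM. Of the 10 members with a mean of at least 10 FPKM, 7 were receptors and 3 were ligands (Tnfsf10, Ltb and Tnfsf12). At the other end 14 members were under 1 FPKM, 9 of them ligands. Tnf itself averaged 1.96 ± 0.904 FPKM in CS and 2.98 ± 2.53 FPKM in SS-31H_CS, far below its receptor.

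**Figure D1:**
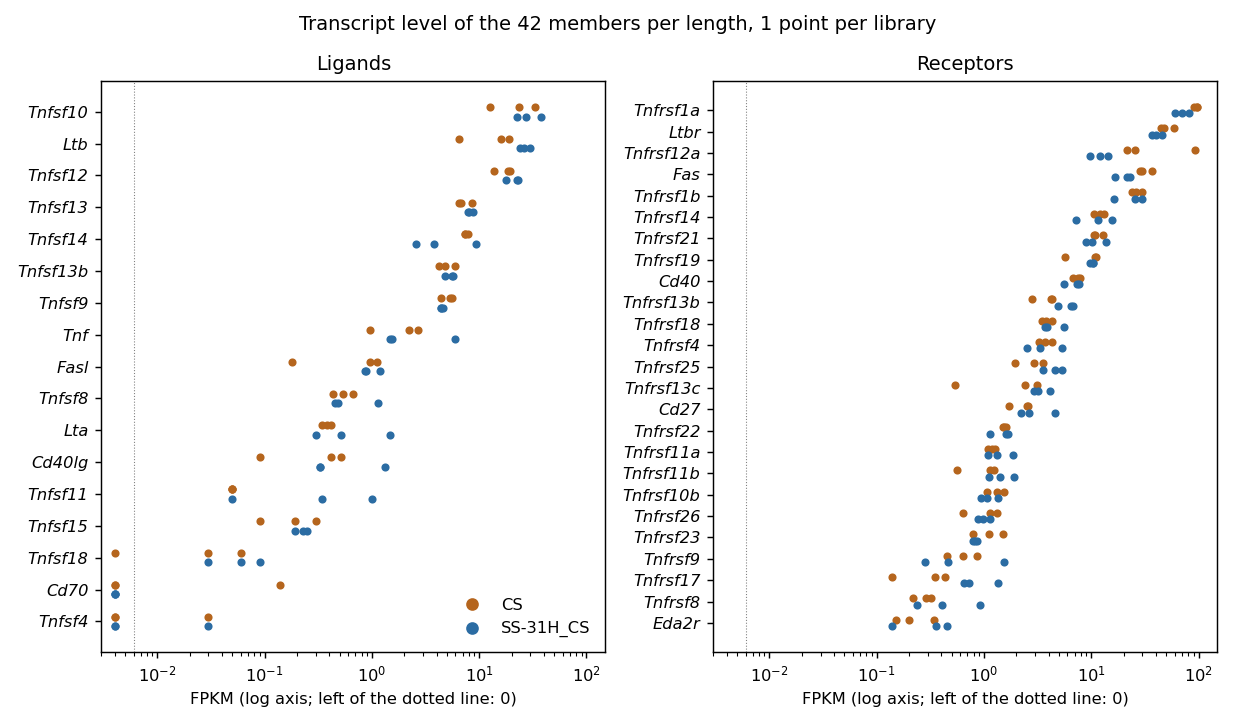
Deposited FPKM (horizontal log axis) of the 17 ligands and 25 receptors, 1 point per library, CS in brown and SS-31H_CS in blue; values of 0 are drawn left of the dotted line. Tnfrsf1a lies highest and Tnfsf4, Cd70 and Tnfsf18 lie near or at 0.

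Of the 42 members, 35 had enough counts to be tested (11 ligands, 24 receptors); the 7 that did not are given by their counts below. The threshold was 0.05 on the p of the quasi-likelihood test in edgeR, after Benjamini-Hochberg adjustment over all 16965 tested genes. No tested member passed it (0 of 35, where 0.153% of all genes passed), and also 0 passed without CS replicate 3 (0.0861% of all genes). By limma voom 0 members passed (0.0354% of all genes, 0.0177% higher and 0.0177% lower). By DESeq2 2 did, Fas and Tnfrsf1a, both lower with SS-31 (5.94% of all genes, 3.38% higher and 2.56% lower). At an unadjusted p under 0.05 there were 7 members (20%, against 18.2% of all tested genes), 3 higher with SS-31 (9.93% of all genes) and 4 lower (8.23% of all genes). The family's share at this level was near that of all genes. The 7 were Fas, Tnfrsf12a, Tnfrsf1a and Ltbr, which were lower, and Ltb, Tnfrsf13b and Tnfrsf25, which were higher. The groups did not overlap in 6 of the 35 (17.1%, against 26.1% of all tested genes), these 7 without Ltbr. SS-31H_CS was higher in 3 of the 6 (13.6% of all genes) and lower in 3 (12.4%).

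The number of higher members at an unadjusted p under 0.05 was 1 of 35 (Tnfrsf13b) when SS-31H_CS replicate 2 was left out (8.70% of all genes then tested) and 5 of 37 when SS-31H_CS replicate 3 was (6.92%). Without CS replicate 3, the library that stood apart, it was 4 of 39 (7.67% of all genes then tested) and the number of lower members 3 (6.14%). The 4 were Ltb, Tnfrsf13b, Tnfrsf17 and Tnfsf11, without Tnfrsf25. Tnfrsf17, also among the 5 of 37, and Tnfsf11 were not tested with all libraries. They passed the low-count filter through SS-31H_CS libraries where they are high, so they add no support. Fas, Tnfrsf12a, Tnfrsf1a and Tnfrsf13b kept an unadjusted p under 0.05 whichever single library was left out. The median log2 fold change was 0.23 over the tested ligands (9 of 11 positive) and -0.09 over the tested receptors (11 of 24 positive), with 0.01 over all tested genes. With 1 library left out, the ligand median ran from 0.52 (CS replicate 1) to 0.09 (CS replicate 3), each over the ligands then tested. Without CS replicate 3 these were 14, with 9 positive. They included Tnfsf11, which passed the filter through libraries where it is high, so these medians are not over the same ligands as 0.23. The receptor median, over the receptors then tested, became positive without CS replicate 1 (0.04) or SS-31H_CS replicate 3 (0.11).

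**Figure D2:**
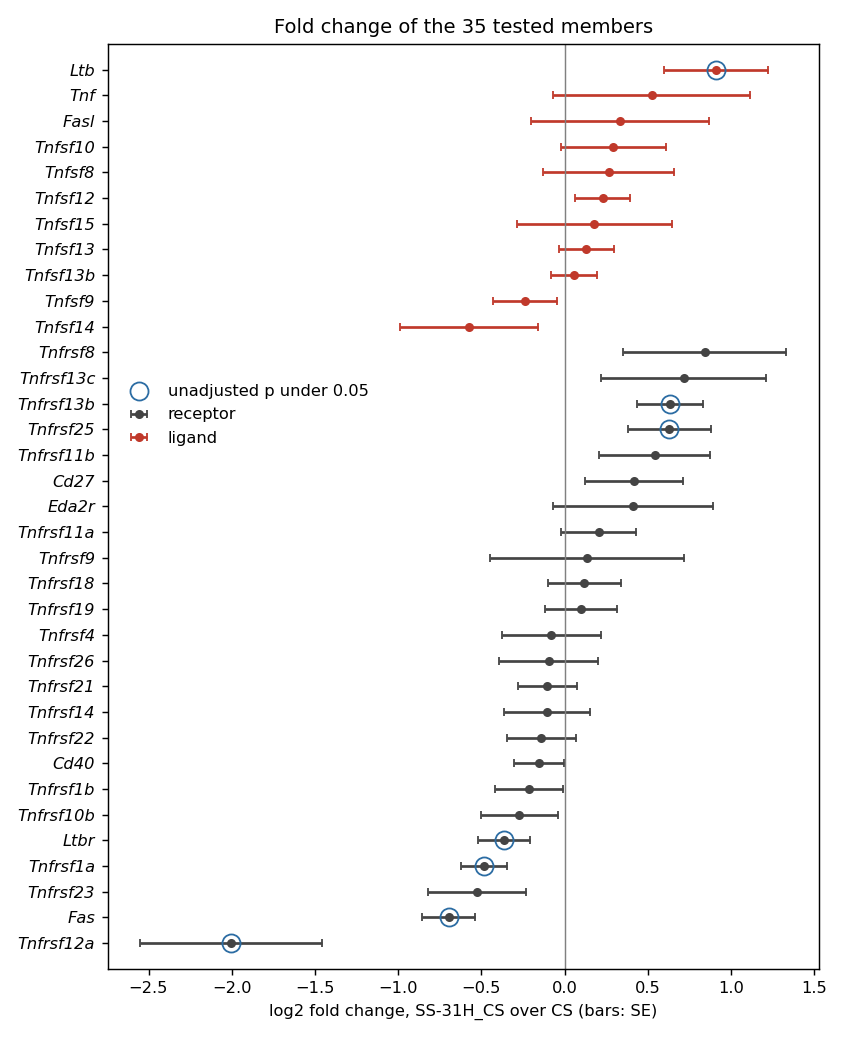
Log2 fold change (SS-31H_CS over CS, horizontal axis) with its standard error for the 35 tested members, ligands in red and receptors in gray; blue rings mark the 7 with an unadjusted p under 0.05. Tnfrsf12a (-2.0) lies farthest from 0 and Ltb (0.91) is the most positive.

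Of the receptors that carry a death domain, those for Fas ligand and TNF had lower values in every SS-31H_CS library than in any CS library, without passing the adjusted threshold in edgeR. Fas, which triggers apoptosis when bound by Fas ligand (ENSMUSG00000024778, GRCm38 chromosome 19, 34290666 to 34327772), had 62.0, 59.0 and 79.2 CPM in replicates 1, 2 and 3 of CS and 44.1, 45.5 and 33.9 CPM in those of SS-31H_CS, the order in which all values by library are given. Every SS-31H_CS library was below every CS library, with CS replicate 3 the highest and SS-31H_CS replicate 3 the lowest. The fold change was 0.617 (log2 -0.70, SE 0.16, adjusted p = 0.107, edgeR), the lowest p of the family. DESeq2 gave an adjusted p of 0.00788 and edgeR without a low-count filter 0.0221, and the range over all alternatives was 0.00788 to 0.295. Without CS replicate 3 the log2 fold change was -0.56.

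Tnfrsf1a, the gene of the TNF receptor TNFR1 (ENSMUSG00000030341, chromosome 6, 125349362 to 125362484), was at 255, 234 and 264 CPM in CS and 210, 174 and 154 CPM in SS-31H_CS. The groups did not overlap, and the CS values lay within a narrower range than the SS-31H_CS values. The log2 fold change was -0.48 (SE 0.14, adjusted p = 0.149, edgeR), a level 0.715 times that of CS. The alternatives gave an adjusted p from 0.0308 (DESeq2) to 0.378, and without CS replicate 3 the log2 fold change was -0.45. Tnfrsf1b, which encodes TNFR2, the TNF receptor without a death domain, was at 115, 98.4 and 96.3 CPM in CS and 112, 93.4 and 61.9 CPM in SS-31H_CS (log2 -0.21, SE 0.20, adjusted p = 0.603). Its groups overlapped, and SS-31H_CS replicate 3 was the lowest library.

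Tnf, the prototype of the family (chromosome 17, 35199381 to 35202007), was low and scattered. It was at 4.49, 1.55 and 3.83 CPM in CS and 2.42, 9.23 and 2.53 CPM in SS-31H_CS. The single high value, in SS-31H_CS replicate 2, set the sign of the fold change: it was 0.52 on the log2 scale (SE 0.59, adjusted p = 0.663) with that library and -0.41 without it. The SE is larger than the estimate, so no difference was detectable.

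Tnfrsf25, which encodes DR3, the receptor for TL1A on T cells, was at 6.73, 8.02 and 4.69 CPM in CS and 12.2, 9.90 and 8.06 CPM in SS-31H_CS (log2 0.63, SE 0.25, adjusted p = 0.247, edgeR). The lowest SS-31H_CS library was only just above the highest CS library, and the log2 fold change was 0.44 without CS replicate 3. Its unadjusted p stayed under 0.05 only when CS replicate 2 or SS-31H_CS replicate 3 was the library left out. Tnfsf15, the gene of TL1A, was between 0.309 CPM, in CS replicate 3, and 1.0 CPM (log2 0.18, SE 0.47). Tnfrsf10b, the mouse receptor for TRAIL, differed by -0.27 on the log2 scale (SE 0.23, adjusted p = 0.560), and Tnfrsf21, which encodes DR6, by -0.10 (SE 0.18, adjusted p = 0.784).

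The death ligands showed no difference beyond the spread of the libraries. Tnfsf10, which encodes TRAIL and was the most abundant ligand, was at 124, 175 and 69.3 CPM in CS and 145, 190 and 117 CPM in SS-31H_CS. CS replicate 3 was the lowest library, and the log2 fold change of 0.29 (SE 0.31, adjusted p = 0.645) was 0.01 without it. Fasl, made by cytotoxic T cells and NK cells, was at 2.18, 1.83 and 0.370 CPM in CS and 1.66, 2.20 and 1.71 CPM in SS-31H_CS (log2 0.33, SE 0.54; -0.12 without CS replicate 3). NK cell markers had the same low library: their sum was 15.6 CPM in CS replicate 3 and 48.4 to 112 CPM in the others.

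Tnfrsf12a had the largest fold change of the tested members. It encodes Fn14, the receptor for TWEAK, which is induced in injured epithelium and stroma (ENSMUSG00000023905, chromosome 17, 23675445 to 23677468). It was at 49.7, 41.0 and 187 CPM in CS and 27.9, 22.4 and 18.8 CPM in SS-31H_CS. The groups did not overlap, but CS replicate 3 was far above every other library. The log2 fold change was -2.0 (SE 0.55, adjusted p = 0.140, edgeR) with this library and -0.98 (adjusted p = 0.119) without it, so a large share of the log2 difference rested on CS replicate 3. Over all alternatives the adjusted p ran from 0.0121, without a low-count filter, to 0.375. Its ligand gene Tnfsf12, which encodes TWEAK, was at 28.6, 29.4 and 21.8 CPM in CS and 34.5, 25.5 and 33.6 CPM in SS-31H_CS (log2 0.23, SE 0.17, adjusted p = 0.489), in overlapping groups.

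**Figure D3:**
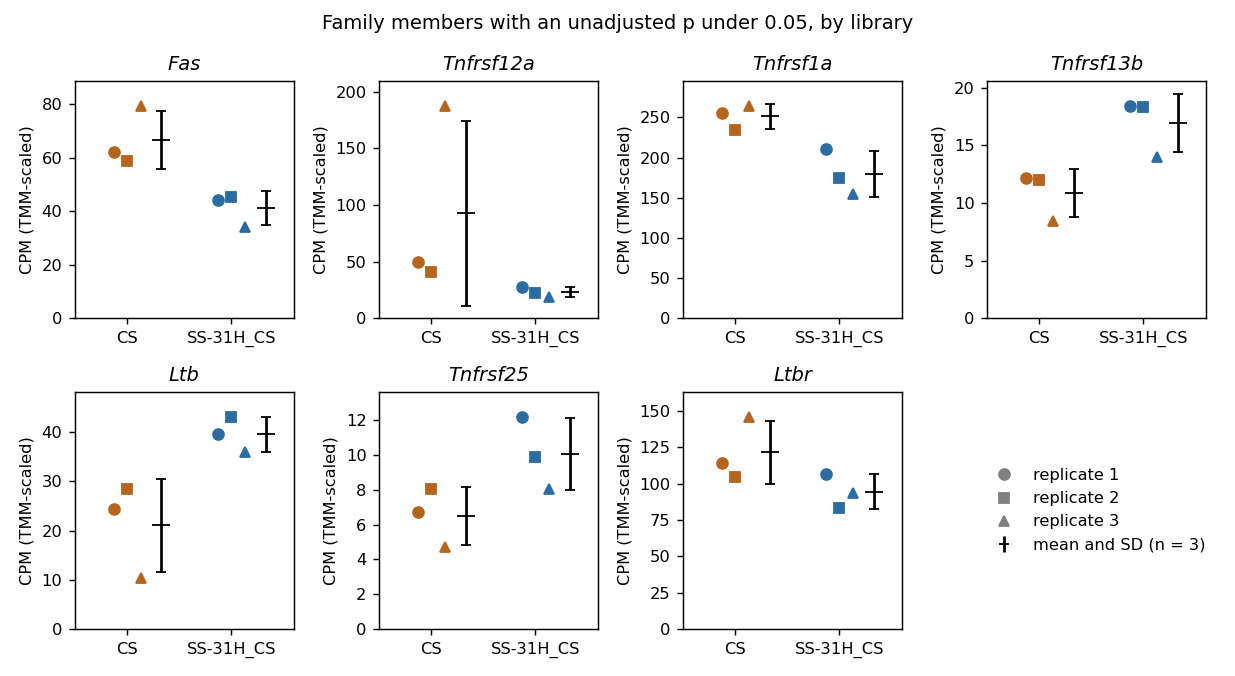
CPM on TMM-scaled library sizes (vertical axes, from 0) of the 7 members with an unadjusted p under 0.05, 1 symbol per library, with the mean and SD of each group. CS replicate 3 (triangles) is the highest CS library for Fas, Tnfrsf12a, Tnfrsf1a and Ltbr and the lowest for Tnfrsf13b, Ltb and Tnfrsf25.

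Genes that glucocorticoids raise were lower in the same libraries as these receptors, and their part in the result was not tested. Of 8 such genes 6 were lower at an unadjusted p under 0.05 (8.23% of all tested genes). By edgeR 0 passed over all genes (0.153% of all tested genes), and by DESeq2 5 did (5.94%). Their median log2 fold change was -0.78. Their summed level was 1451, 1477 and 2338 CPM in CS replicates 1, 2 and 3 and 959 to 1037 CPM in SS-31H_CS. CS replicate 3 was the highest library here, as it was for Fas, Tnfrsf12a, Tnfrsf1a and Ltbr. Endothelial markers were lower with SS-31 as well (summed 3962 to 5013 CPM in CS and 2749 to 3747 CPM in SS-31H_CS). Of these, 6 of 6 had a negative fold change and 4 an unadjusted p under 0.05 (8.23% of all tested genes lower). Among CS libraries they were lowest in CS replicate 3. Summed alveolar macrophage markers were at 1761, 1560 and 1923 CPM in CS and 1103, 926 and 692 CPM in SS-31H_CS. Of these, 8 of 8 were negative and 3 had an unadjusted p under 0.05 (8.23% of all tested genes lower). Chil3 made up most of the sum (1400, 1222 and 1629 CPM in CS) and alone was highest in CS replicate 3. Marco, Siglecf, Ear1, Ear2, Krt79 and Car4 were lowest among CS libraries in CS replicate 3. Summed type 1 cell markers were highest in CS replicate 3, at 4232, 4051 and 5088 CPM in CS. In SS-31H_CS they were at 4173, 3151 and 3567 CPM. Of 4 tested, 3 were negative and 0 had an unadjusted p under 0.05. Ager, Hopx and Aqp5 were highest in CS replicate 3, while Rtkn2 was lowest there (188, 214 and 71.8 CPM in CS). Ciliated cell markers were higher with SS-31 (summed 322 to 495 CPM in CS and 612 to 914 CPM in SS-31H_CS). Of these, 6 of 6 had an unadjusted p under 0.05 (9.93% of all tested genes higher). Dendritic cell markers summed to 91.3 to 92.8 CPM in CS and 100.2 to 129 CPM in SS-31H_CS, highest in SS-31H_CS replicate 2. Their median log2 fold change was 0.97, and 0.90 without CS replicate 3. Of these, 6 of 8 were positive and 4 were higher at an unadjusted p under 0.05 (9.93% of all tested genes). By edgeR 0 genes of these cell type lists passed the adjusted threshold (0.153% of all tested genes). By DESeq2 2 endothelial, 2 macrophage, 0 type 1, 5 ciliated and 3 dendritic cell markers did (5.94% of all genes). The part of these cell types in the members' values was not tested.

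Neither Ltb nor Ltbr, the tested ligand and receptor genes of lymphotoxin beta, passed the adjusted threshold. Ltb, made by lymphocytes and joined with lymphotoxin alpha at the cell surface (ENSMUSG00000024399, chromosome 17, 35194439 to 35196320), was at 24.4, 28.4 and 10.4 CPM in CS and 39.6, 43.1 and 36.1 CPM in SS-31H_CS. Every SS-31H_CS library was above every CS library, and CS replicate 3 was the lowest. The log2 fold change was 0.91 (SE 0.31, adjusted p = 0.199, edgeR), and 0.58 (adjusted p = 0.151) without CS replicate 3. Of the 6 libraries left out in turn, only SS-31H_CS replicate 2 took its unadjusted p over 0.05.

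Ltbr, expressed by stromal, epithelial and myeloid cells (ENSMUSG00000030339, chromosome 6, 125306571 to 125313885), was at 114, 105 and 146 CPM in CS and 107, 83.4 and 93.3 CPM in SS-31H_CS. The highest SS-31H_CS library lay inside the CS range. The log2 fold change was -0.36 (SE 0.15, adjusted p = 0.267, edgeR), and -0.21 without CS replicate 3. Its unadjusted p stayed under 0.05 only when CS replicate 2 or SS-31H_CS replicate 1 was the library left out. Lta, the soluble partner, did not have enough counts to be tested, with 8, 10 and 9 counts in CS and 7, 32 and 12 in SS-31H_CS.

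Tnfsf14, the gene of LIGHT, which binds both the lymphotoxin beta receptor and HVEM, was at 13.8, 14.3 and 14.3 CPM in CS and 17.0, 6.66 and 4.76 CPM in SS-31H_CS. The CS libraries were close together and the SS-31H_CS libraries spread on both sides of them (log2 -0.57, SE 0.41, adjusted p = 0.489). Without SS-31H_CS replicate 1 the log2 fold change was -1.31 (adjusted p = 0.0765, the lowest of the alternatives, whose highest was 0.791). Summed neutrophil markers had the same order among the SS-31H_CS libraries, at 3541, 1412 and 504 CPM in replicates 1, 2 and 3, with 2500 to 3581 CPM in CS. Tnfrsf14, which encodes HVEM, was at 17.5, 18.8 and 16.1 CPM in CS and 22.5, 15.8 and 10.4 CPM in SS-31H_CS (log2 -0.11, SE 0.26), again with SS-31H_CS replicate 1 highest and replicate 3 lowest. The part of neutrophil number in these values was not tested.

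Genes tied to lymphotoxin signaling and lymphoid tissue were mostly sparse. Of 11 listed, 7 were tested, with a median log2 fold change of 0.50 (0.01 over all tested genes). By edgeR or DESeq2 0 passed over all genes, and 1 was higher at an unadjusted p under 0.05 (9.93% of all tested genes). This was Cxcl12, a chemokine of stromal cells, at 195 ± 46.7 CPM in CS against 276 ± 47.0 CPM in SS-31H_CS (log2 0.50, adjusted p = 0.249), with an unadjusted p over 0.05 without CS replicate 3. Fcer2a, which encodes the IgE receptor CD23 of B cells, was at 13.5, 16.4 and 1.61 CPM in CS and 25.1, 25.2 and 25.6 CPM in SS-31H_CS (log2 1.26, SE 0.60, adjusted p = 0.314; 0.75 without CS replicate 3). Its groups did not overlap, and CS replicate 3 was far below the rest. Cr2, a complement receptor of B cells and follicular dendritic cells, and Cxcr5, the homing receptor for B cell follicles, had log2 fold changes of 0.76 (SE 0.56) and 0.51 (SE 0.44), 0.28 and 0.10 without CS replicate 3. Ccl19, Ccl21a, Madcam1 and Glycam1 did not have enough counts to be tested.

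In the branch that sustains B cells, no tested member passed the adjusted threshold, and 1, a receptor gene, had an unadjusted p under 0.05. Tnfrsf13b, which encodes TACI, a receptor of B cells and plasma cells (ENSMUSG00000010142, chromosome 11, 61126755 to 61149372), was at 12.2, 12.0 and 8.46 CPM in CS and 18.4, 18.3 and 14.0 CPM in SS-31H_CS. The groups did not overlap. The log2 fold change was 0.63 (SE 0.20, adjusted p = 0.172, edgeR), 1.55-fold, and 0.48 without CS replicate 3.

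Tnfrsf13c, which encodes the BAFF receptor of mature B cells, was at 5.02, 6.36 and 1.17 CPM in CS and 6.03, 8.13 and 6.53 CPM in SS-31H_CS (log2 0.72, SE 0.49, adjusted p = 0.473). CS replicate 3 was the low library, and without it the log2 fold change was 0.27. Tnfrsf17, which encodes BCMA and is made by plasma cells, was not tested: it had 2, 5 and 6 counts in CS and 10, 17 and 9 in SS-31H_CS, with each SS-31H_CS library above each CS library. Without a low-count filter the estimate was 1.44 on the log2 scale (SE 0.63, adjusted p = 0.323).

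Tnfsf13b, the gene of BAFF, which keeps B cells alive, was at 41.3, 32.5 and 30.3 CPM in CS and 33.2, 37.0 and 38.1 CPM in SS-31H_CS (log2 0.06, SE 0.14, adjusted p = 0.854). Tnfsf13, the gene of the related ligand APRIL, was at 12.1 ± 1.80 CPM in CS against 13.2 ± 1.01 CPM in SS-31H_CS (log2 0.13, SE 0.16). In the annotation 60.0% of the exon length of Tnfsf13 and 48.3% of that of Tnfsf12 is shared with Tnfsfm13, a gene on the same strand that spans both, so their counts are uncertain.

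The values of B cell markers are given beside Ltb and Tnfrsf13b because these genes are made by B cells; their part in the result was not tested. All 9 B cell markers had a positive log2 fold change (median 0.73; 0.28 without CS replicate 3). None passed over all genes by edgeR or DESeq2 (0 of 9), and 0 had an unadjusted p under 0.05. Their sum was 222, 303 and 52.1 CPM in CS and 317, 314 and 339 CPM in SS-31H_CS. Of 4 plasma cell markers, 2 were higher at an unadjusted p under 0.05 (9.93% of all tested genes) and 0 passed over all genes by edgeR or DESeq2. The fold change of 1 of the 4, Sdc1, was negative (log2 -0.21).

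SS-31H_CS replicate 2 was the highest of the 6 libraries for Cd27, Cd40lg, Lta, Tnf, Tnfsf8, Tnfsf11, Tnfrsf4, Tnfrsf8, Tnfrsf9 and Tnfrsf18, a set named after the values were seen. Other members with a role in T cell costimulation had another order: Tnfrsf25, Tnfsf14 and Tnfrsf14 were highest in SS-31H_CS replicate 1, and Tnfsf9 in CS replicate 3. SS-31H_CS replicate 2 was the highest library for 17 of the 42 members. These also included Fasl, Ltb, Tnfsf10, Tnfrsf11a, Tnfrsf11b, Tnfrsf13c and Tnfrsf17, so the trait was not particular to T cell costimulation. Over the tested members SS-31H_CS replicate 2 was the highest library for 13 of 35 (37.1%), and over all tested genes for 16.8%. CS replicate 3 was the lowest library for 13 of the 35 (37.1%), with 28.7% over all tested genes. Summed T cell markers were at 102, 131 and 50.5 CPM in CS and 107, 226 and 126 CPM in SS-31H_CS. They were highest in SS-31H_CS replicate 2 and lowest in CS replicate 3. Of the set named first, only Cd27 and Cd40lg were lowest in CS replicate 3. All 10 T cell markers had a positive log2 fold change (median 0.71), with 0 at an unadjusted p under 0.05 and 0 over all genes by edgeR or DESeq2. The part of T cell number in these values was not tested.

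Cd27, a receptor of T cells, was at 5.90, 5.90 and 4.20 CPM in CS and 6.09, 10.2 and 5.12 CPM in SS-31H_CS (log2 0.42, SE 0.30, adjusted p = 0.484; 0.07 without SS-31H_CS replicate 2). Its ligand gene Cd70 had 2 counts in CS replicate 2 and 0 in every other library. Tnfrsf9, which encodes the costimulator 4-1BB, was at 1.77, 2.35 and 1.30 CPM in CS and 1.24, 3.97 and 0.765 CPM in SS-31H_CS (log2 0.14, SE 0.58; -0.85 without SS-31H_CS replicate 2). Its ligand gene Tnfsf9 varied little in SS-31H_CS, at 5.71 ± 0.0252 CPM, with 6.73 ± 1.01 CPM in CS (log2 -0.24, SE 0.19, adjusted p = 0.546); 14.9% of its exon length overlaps a gene on the other strand.

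Tnfrsf8, which encodes CD30, an activation marker of lymphocytes, was at 0.767, 1.09 and 1.05 CPM in CS and 1.42, 2.99 and 0.823 CPM in SS-31H_CS (log2 0.84, SE 0.49, adjusted p = 0.4; 0.21 without SS-31H_CS replicate 2). Its ligand gene Tnfsf8 had a log2 fold change of 0.27 (SE 0.39; -0.26 without that library). Tnfrsf4 (OX40) and Tnfrsf18 (GITR), both high on regulatory T cells, had log2 fold changes of -0.08 (SE 0.30) and 0.12 (SE 0.22). Their ligand genes were near absent from the counts: Tnfsf4 had 1 count in each group, and Tnfsf18 had 3 counts in CS and 6 in SS-31H_CS. For Tnfrsf18, 27.2% of the exon length overlaps a gene on the other strand.

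Of the CD40 pair only the receptor gene was tested, and it did not differ beyond its spread. Cd40, through which helper T cells activate B cells and macrophages (chromosome 2, 165055627 to 165072948), was at 23.4, 25.4 and 28.2 CPM in CS and 25.1, 25.1 and 19.0 CPM in SS-31H_CS (log2 -0.15, SE 0.15, adjusted p = 0.611). SS-31H_CS replicate 3 was the lowest library and the other 5 lay close together. Cd40lg had 9, 11 and 2 counts in CS and 7, 26 and 7 counts in SS-31H_CS, too few to be tested.

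The RANK branch governs bone-resorbing cells and lymphoid organ development. Tnfsf11, which encodes its ligand RANKL, was not tested because of low counts: 2, 2 and 2 in CS and 2, 35 and 13 in SS-31H_CS. A total of 6 counts thus stood against 50, with SS-31H_CS replicate 1 at the CS level. Without a low-count filter the log2 fold change was 2.99 (SE 0.85, adjusted p = 0.0813). With any CS library or SS-31H_CS replicate 1 left out, Tnfsf11 passed the filter with an unadjusted p under 0.05, but not with SS-31H_CS replicate 2 or 3 left out. It passed only through SS-31H_CS replicates 2 and 3, the libraries where it is high, so these p-values are no support for a difference.

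Tnfrsf11a, the gene of the receptor RANK, was at 7.22 ± 0.579 CPM in CS against 8.32 ± 2.17 CPM in SS-31H_CS (log2 0.20, SE 0.22). Tnfrsf11b, which encodes osteoprotegerin, the soluble decoy for RANKL, was at 3.25, 3.44 and 1.67 CPM in CS and 3.13, 5.07 and 4.00 CPM in SS-31H_CS (log2 0.54, SE 0.33, adjusted p = 0.423). The groups overlapped for both genes.

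The remaining receptors are decoys or have few known ligands. Tnfrsf22 and Tnfrsf23, decoys for TRAIL in the mouse, and Tnfrsf26 lie together within 78.2 kb on chromosome 7 and are similar in sequence, so reads may have been split between them. Their log2 fold changes were -0.14 (SE 0.21), -0.53 (SE 0.29, adjusted p = 0.381) and -0.10 (SE 0.30). Tnfrsf19 (TROY), a receptor of epithelial progenitors, was at 52.4, 52.0 and 28.2 CPM in CS and 49.3, 46.6 and 46.2 CPM in SS-31H_CS (log2 0.10, SE 0.22), with only CS replicate 3 low. Eda2r, a receptor for ectodysplasin A2, was at 1.37 ± 0.565 CPM in CS against 1.83 ± 0.924 CPM in SS-31H_CS (log2 0.41, SE 0.48).

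**Figure D4:**
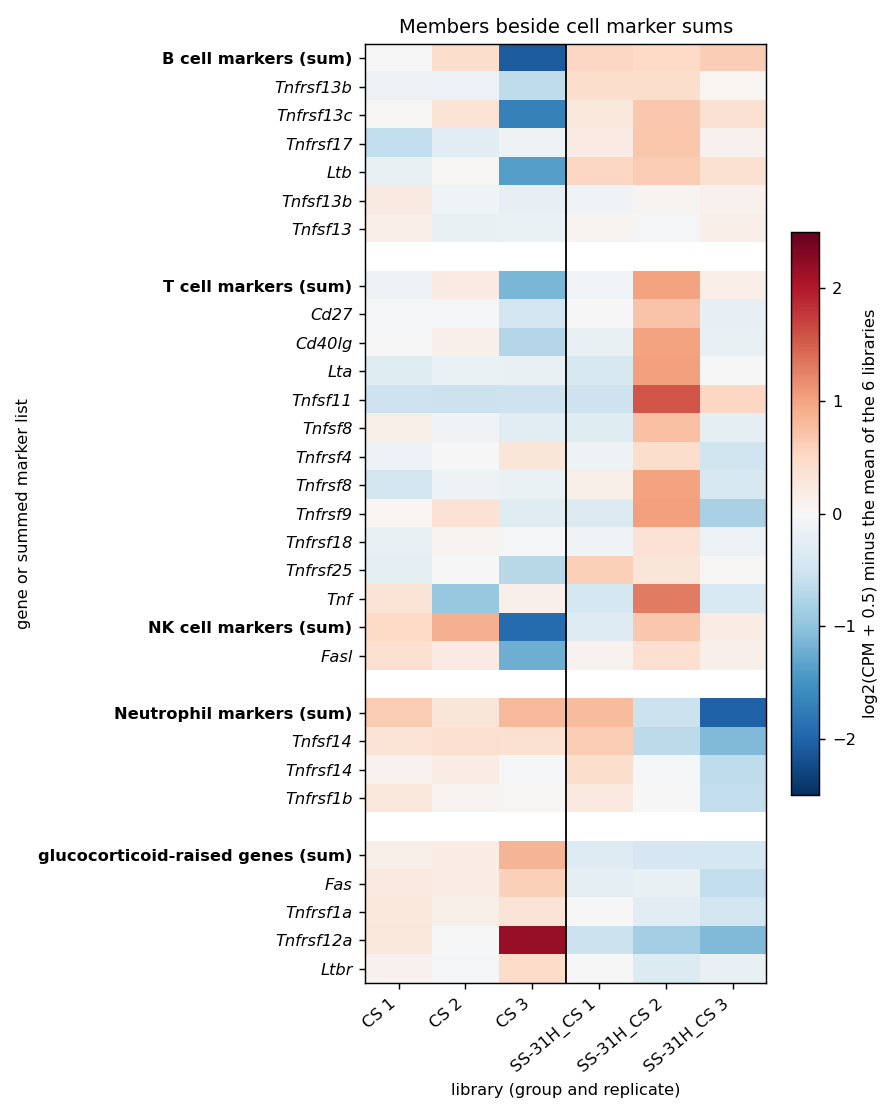
Log2(CPM + 0.5) minus the mean of the 6 libraries (color) for members set beside the summed CPM of marker lists (bold rows), with libraries in columns and CS left of the black line; the blocks were chosen after the values were seen. CS replicate 3 is the lowest library in the B, T and NK cell marker sums, SS-31H_CS replicate 2 the highest in the T cell sum, and SS-31H_CS replicate 3 the lowest in the neutrophil sum and in Tnfsf14, Tnfrsf14 and Tnfrsf1b.

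Several members are neighbors in the genome, and the signs within such clusters were alike in some and mixed in others. Tnfrsf1a, Ltbr and Cd27 lie within 130 kb on chromosome 6, and their log2 fold changes were -0.48, -0.36 and 0.42. Ltb, Tnf and Lta lie within 10.9 kb on chromosome 17, with 0.91 for Ltb and 0.52 for Tnf. Farther along the same chromosome, Tnfsf9, Cd70 and Tnfsf14 lie within 88.9 kb, with -0.24 for Tnfsf9 and -0.57 for Tnfsf14. In all, 9 of the 42 members are on chromosome 4 and 8 on chromosome 17.

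Of 29 listed adaptors and enzymes that act directly below these receptors 28 were tested, 0 passed over all genes by edgeR (1 by DESeq2), and 5 had an unadjusted p under 0.05, 1 higher (9.93% of all tested genes) and 4 lower (8.23%). The median log2 fold change was -0.09. Traf1, an NF-kB-induced adaptor of lymphocytes, was the higher one, at 73.7, 68.3 and 51.5 CPM in CS and 100.3, 84.6 and 96.5 CPM in SS-31H_CS (log2 0.54, SE 0.15, adjusted p = 0.144, edgeR). Its groups did not overlap, as for Ltb, and CS replicate 3 was again the lowest library.

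Ripk1, the kinase that decides between survival and death below TNFR1, was at 53.6, 60.1 and 68.8 CPM in CS and 45.3, 48.8 and 44.5 CPM in SS-31H_CS (log2 -0.40, SE 0.12, adjusted p = 0.161). Mlkl, the executioner of necroptosis, was at 13.9, 13.2 and 26.5 CPM in CS and 8.75, 13 and 7.47 CPM in SS-31H_CS (log2 -0.88, adjusted p = 0.217), with an unadjusted p over 0.05 without CS replicate 3. Adam17, the protease that sheds TNF and its receptors, went from 87.9 ± 3.07 to 73.4 ± 2.88 CPM (log2 -0.26, adjusted p = 0.217). The fifth gene with an unadjusted p under 0.05 was Birc3, which encodes an inhibitor of apoptosis (log2 -0.39, adjusted p = 0.266). Its groups overlapped, and without CS replicate 3 the log2 fold change was -0.27, with an unadjusted p over 0.05.

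Of 20 listed genes that TNF induces through NF-kB 19 were tested, 0 passed over all genes by edgeR (1 by DESeq2), and 2 were higher and 2 lower at an unadjusted p under 0.05 (9.93% and 8.23% of all tested genes), shares near those of all genes. The median log2 fold change was -0.14 (0.05 without CS replicate 3). Cxcl2, a neutrophil chemokine, was at 29.0, 1.38 and 5.00 CPM in CS and 0.473, 1.41 and 0.353 CPM in SS-31H_CS (log2 -3.98, SE 1.11, adjusted p = 0.145), with most of the difference in CS replicate 1. Ccl20, a chemokine for dendritic cells and lymphocytes, was at 38.7 CPM in SS-31H_CS replicate 2 and at most 0.946 CPM elsewhere; the same library had the highest Tnf. Its unadjusted p was over 0.05 without CS replicate 3. Ier3, an early response gene, was at 141 ± 22.3 CPM in CS against 189 ± 32.1 CPM in SS-31H_CS (log2 0.42, adjusted p = 0.245).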

How the data were processed

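Lung RNA sequencing of 6 libraries (3 CS, 3 SS-31H_CS) was used. The values the authors deposited are read counts by Ensembl gene, without normalization, and FPKM. The submitters' processing notes name HTSeq 0.6.1, HISAT2 2.0.1, cutadapt 1.9.1 and the build GRCm38; tool roles, annotation release and strand setting are not given in the sources used here. In 3310 highly counted genes, the deposited FPKM divided by counts followed the library totals within 0.26%, so the FPKM carry no other scaling. Symbols and coordinates came from GENCODE M21 (55480 identifiers matched, 93 did not), and 35 of the 42 members passed the low-count filter.

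Counts were tested with edgeR 4.0.16 (R 4.3.3): TMM, filterByExpr (minimum count 10, minimum total 15), quasi-likelihood test, two-sided, no covariate, Benjamini-Hochberg over 16965 genes, threshold 0.05. A positive log2 fold change means higher in SS-31H_CS. FPKM served to compare levels between genes. All members are accounted for; those with an unadjusted p under 0.05 and 10 fixed members (Tnf, Tnfrsf1a, Tnfrsf1b, Fas, Cd40, Ltb, Ltbr, Tnfsf10, Tnfsf13b, Tnfrsf11b) are given by library, and of other lists up to 4 genes with the lowest p by rule. Alternatives were other scaling, filters, DESeq2 1.42.0, limma 3.58.1 (voom; trend on log2 FPKM), a replicate block and leaving out each library. The fits were tested on simulated data. Members, lists and tests were chosen with earlier results of these data known. Replicate numbers do not pair the libraries. The totals of 15611925 to 17360052 counts limit precision for the members with few counts.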

Additional observations from a re-analysis of the deposited data

How the results depend on the processing

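No library left out changed the number of family members past the adjusted threshold (0 in each of the 6 fits), and the number past it was 2 by DESeq2 (Fas, Tnfrsf1a) and 2 without a low-count filter (Fas, Tnfrsf12a). The cause was not tested. Over all genes, 26 passed, against 12 with library size alone, 648 without a filter, 948 by DESeq2, 6 by limma voom, 6 by limma on log2(FPKM + 1), 5 with a pseudocount of 0.1 and 4 with no filter on FPKM, and 1 to 15 with 1 library left out. With the replicate number as a block, 0 genes and 0 members passed, and the same 7 members had an unadjusted p under 0.05; deviations of same-numbered libraries correlated at 0.00721, 0.0363 and -0.0571, so the numbers do not pair the libraries. Library size alone moved the split at an unadjusted p under 0.05 from 9.93% higher and 8.23% lower to 12.0% and 5.82% of all genes. Members higher at that level numbered 5 of 42 without a filter, which adds Tnfrsf17 and Tnfsf11 (7.0% of all genes), and 1 to 5 with 1 library left out (6.92% to 9.71% of all genes). Members whose groups did not overlap numbered 8 to 16 with 1 library left out (22.9% to 42.1% of those tested, against 33.1% to 41.6% of all genes). The medians over the members then tested, a set that differed between these fits, ran from 0.087 to 0.52 (ligands) and from -0.12 to 0.11 (receptors).

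Of 343 member values under the other alternatives, 4 turned sign: Tnfrsf9 by voom (-0.18), log2(FPKM + 0.1) (-0.0622) and the block (-0.10), and Tnfrsf26 by log2(FPKM + 0.1) (0.0001). With 1 library left out, 14 members turned sign, over these ranges: Fasl -0.12 to 0.73, Tnf -0.41 to 0.83, Tnfsf13b -0.0356 to 0.19, Tnfsf15 -0.15 to 0.63, Tnfsf8 -0.26 to 0.48, Tnfrsf11a -0.0178 to 0.35, Tnfrsf14 -0.42 to 0.13, Tnfrsf18 -0.0756 to 0.22, Tnfrsf19 -0.15 to 0.23, Tnfrsf21 -0.32 to 0.0397, Tnfrsf22 -0.23 to 0.0057, Tnfrsf26 -0.34 to 0.11, Tnfrsf4 -0.40 to 0.13 and Tnfrsf9 -0.85 to 0.52. The other 21 kept their sign in every fit. Counts of 0 to 35 per library limit the 7 untested members.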
